A study of Mus musculus with 6 samples.

Results

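The unstimulated state of LβT2 cells, a mouse pituitary line of gonadotrope type, was described from 3 of the 6 arrays of a study of activin A. The 3 arrays were chosen because their labels name them as controls, and they hold cells given buffer without activin and harvested after 1, 2 or 6 h. The other 3 arrays hold cells given activin A at 30 ng/ml for the same times and were used only to check the brightest genes and as an alternative set of arrays. Before treatment every culture stood for 16 h in medium without serum or phenol red, and the buffer held NaCl and Tris. Each time was 1 array, and nothing in the labels says that the 3 RNA samples came from separate cultures or days. The SD values below are over these 3 arrays on the log2 scale, so they include any change with harvest time and cover no other source of error that the 3 samples share.

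Gonadotropes are the cells of the anterior pituitary that make luteinizing hormone and follicle-stimulating hormone. Both hormones pair the common alpha subunit, encoded by Cga, with a beta subunit of their own, encoded by Lhb or Fshb, and both are stored in granules and released when gonadotropin-releasing hormone acts on its receptor, Gnrhr. The nuclear receptor SF-1, encoded by Nr5a1, and the forkhead factor Foxl2 act on the promoters of these genes. The line was derived from a pituitary tumour of a mouse that carried SV40 T antigen under regulatory sequence of the rat Lhb gene, so it is a clonal, dividing, transformed model of a cell that in the gland rarely divides.

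For each of 45037 probe sets the geometric mean of the 3 deposited signals was taken and ranked, and each of 18193 genes was represented by its brightest probe set. Signal is an intensity on a linear scale, and each array had a trimmed mean of 500. Medians over the probe sets lay between 158.5 and 161.8 on the 3 arrays. The files carry no detection calls, so a limit was taken from genes of families that are read in other organs: odorant, vomeronasal and taste receptors, trace amine receptors, keratin-associated proteins and beta-defensins. The 95th percentile of their 133 genes was a signal of 287.8, which lies at percentile 62.8 of all probe sets. A gene above this limit was brighter than nearly all of these families, which is not the same as a detection call. Probes differ in how brightly they bind, so a rank places a probe set on the array and does not compare amounts of transcript between genes.

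Of all genes, 9409 lay above the limit, a share of 51.7%, and 9033 did so on each of the 3 arrays. Every count below is read against that share. Of the genes in the lists used here, 638 were on the arrays under 1 name. Granule proteins stood above that share, with 47 of 58 above the limit and a median percentile of 85.9, beside a median of 64.6 over all genes. Proteins of signal transduction downstream of the GnRH receptor followed with 30 of 38. Transcription factors, at 39 of 71 and a median percentile of 64.9, were close to the background. Receptors, at 30 of 85 and 53.0, channels, at 57 of 181 and 48.9, and hormones, at 9 of 58 and 38.1, lay below it. These medians rest on the brightest probe set of each gene. By the median of the probe sets of each gene they were lower, at 71.6 for granule proteins and 38.5 for receptors. With the 99th percentile of the same families as the limit (a signal of 707.3), 38 granule proteins, 24 transcription factors, 15 receptors, 24 channels and 6 hormones were above it. At that limit 6306 of all 18193 genes were above it, so these counts are not read against 51.7%.

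**Figure D1:**
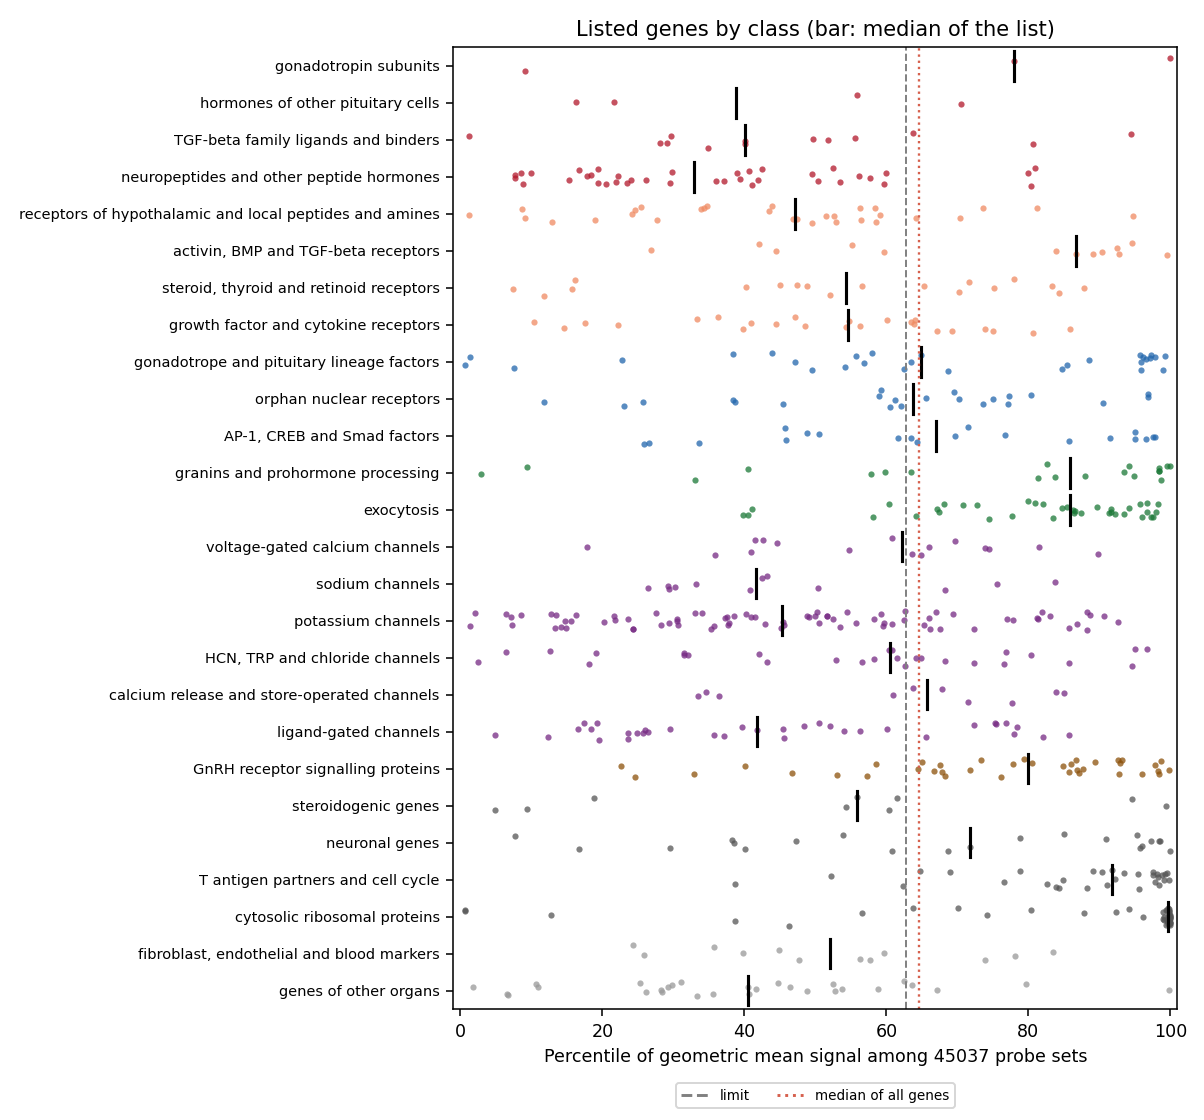
Each point is 1 gene of the lists. Its place on the x axis is the percentile of its geometric mean signal over the 3 vehicle arrays among 45037 probe sets. Each list has 1 row, except that of markers of other pituitary cells, which is not drawn. Black bars are the list medians, the dashed line is the limit at percentile 62.8 and the dotted line is the median of all genes at 64.6. The lists of exocytosis and of granins have medians of 85.9 and 85.8, and the list of neuropeptides has a median of 32.9.

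The marker genes Cga, Nr5a1, Foxl2 and Gnrhr were bright. Cga signals were 11888.7 on the 1 h array, 13900.2 on the 2 h array and 13746 on the 6 h array. The geometric mean of 13146 (SD 0.13, n = 3 arrays) ranked 1 of all 45037 probe sets. It ranked 4 on the 1 h array and 1 on the other arrays. Nr5a1 read 3586.9, 3428.9 and 3281.8, at percentile 96.2. These 3 values were close together (SD 0.06). Foxl2 read 3952.3, 3749.2 and 3224.8, at percentile 96.5, with an SD of 0.15 beside a median of 0.08 in the brightest quintile of probe sets. Gnrhr read 2688.2, 2985.2 and 2493 on its brightest probe set, at percentile 94.7. That probe set reads several transcript forms of the gene, and the other Gnrhr probe sets, with geometric means of 162.4 and 103.9, were not above the limit and place the gene at percentile 50.9 when that probe set is left out. The second Nr5a1 probe set, at 34.0, was also dim, so that the median of both stands at percentile 58.3, and the second Foxl2 probe set, at 405.3, was above the limit.

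The beta subunits stood apart from the alpha subunit and from each other. Lhb read 724.7, 714.7 and 668.3, above the limit on every array and at percentile 78.0. Its geometric mean of 702 was just below the stricter limit of 707.3, which the 1 h and 2 h arrays passed. That stricter limit lies in a gap between the family genes Vmn1r148 (484.2) and Krtap12-1 (812.3). Fshb read 11.1, 6.4 and 38.7, at percentile 9.1. All 3 Fshb values were below the median signal of the families of other organs, 71.8, and their SD was 1.33. Over quintiles of probe sets from dimmest to brightest the median SD fell from 0.58 to 0.08, so the dim values below carry little order.

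**Figure D2:**
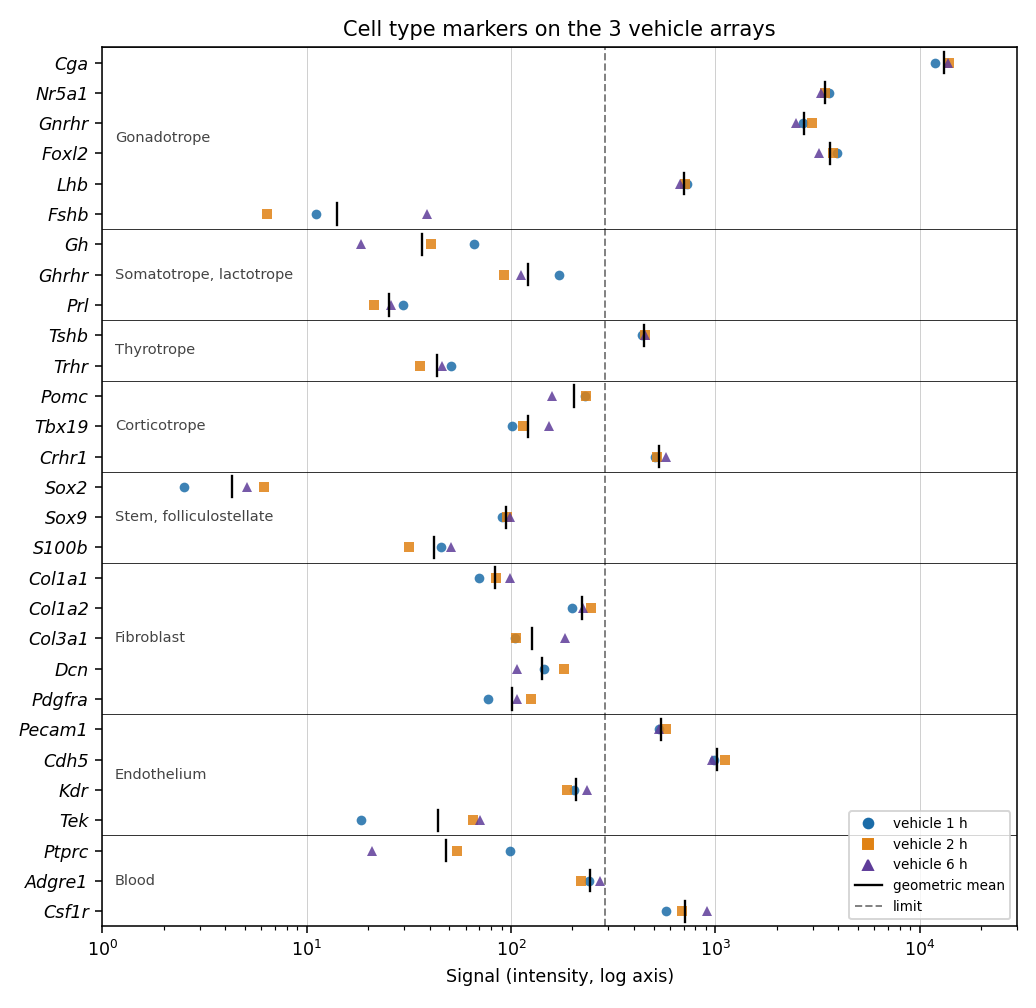
Signals of marker genes on the vehicle arrays at 1, 2 and 6 h (points, log axis) with their geometric mean (bar) and the limit of 287.8 (dashed line), grouped by the cell type each gene marks. Of the gonadotrope genes Fshb alone lies below the limit, and 2 of 11 markers of other pituitary cells, Crhr1 and Tshb, lie above it.

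Hormones of the other pituitary cells were dim with 1 exception. Growth hormone read 66.1, 40.7 and 18.5, and prolactin 29.6, 21.3 and 25.8. Pomc, the precursor of corticotropin, read 229.6, 233.3 and 159.3, below the limit on every array. Tshb, which encodes the beta subunit of thyroid-stimulating hormone and shares the alpha subunit with Lhb and Fshb, read 437.4, 451.6 and 450.9 (SD 0.03), above the limit on every array and at percentile 70.6.

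Among 13 ligands and binding proteins of the TGF-beta family 3 were above the limit. Inhbb, the beta-B subunit of activin B, read 2589, 2873.4 and 2496.8, at percentile 94.5, and Inha, the alpha subunit that turns activin chains into inhibin, read 853.3, 840.2 and 840.2. Tgfb1 was at 304.6, near the limit. Inhba, the beta-A subunit, read 110, 27.7 and 55, and the activin-binding proteins follistatin and Fstl3 were at 60.2 and 80.1, none of them above the limit on any array. The line had bright signals for inhibin alpha and for 1 of the activin chains, and dim ones for the other chain and for the secreted binders.

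Of 38 neuropeptides and other peptide hormones 3 were above the limit, all on every array. Oxytocin (Oxt) read 895.9, 856.4 and 832, C-type natriuretic peptide (Nppc) 732.6, 775.1 and 1003.6, and the nociceptin precursor Pnoc 817.8, 750.8 and 827.1. Each is a peptide best known from neurons or, for Nppc, also from vessels and cartilage. Npy, at 248.7, and Igf1, at 245.2, lay just below the limit, and leptin, thyrotropin-releasing hormone and cholecystokinin were the dimmest at 12.1 to 13.4.

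The promoters of the gonadotropin genes, of the GnRH receptor and of a bright granule gene and a bright receptor gene are shown here. They do not all match the same motifs, and only exact matches to the letters below were sought. Each run is the 250 bases before the annotated start, from RefSeq on build GRCm38.p6, 5′ to 3′ on the strand of the gene. Capitals mark TATAAA (the TATA box), TGACGTCA (the cyclic AMP response element) and AAGGTCA (a sequence bound by SF-1), each searched on both strands. The Cga interval is chr4:34893529-34893778, plus strand. The Lhb interval is chr7:45420696-45420945, plus strand. The Fshb interval is chr2:107059652-107059901, minus strand. The Gnrhr interval is chr5:86197902-86198151, minus strand. The Scg2 interval is chr1:79440027-79440276, minus strand. The Amhr2 interval is chr15:102445117-102445366, plus strand.
Cga: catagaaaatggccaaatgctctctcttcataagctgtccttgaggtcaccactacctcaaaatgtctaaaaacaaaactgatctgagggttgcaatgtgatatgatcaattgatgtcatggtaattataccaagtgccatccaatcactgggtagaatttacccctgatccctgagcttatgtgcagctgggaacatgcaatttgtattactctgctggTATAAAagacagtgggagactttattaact
Lhb: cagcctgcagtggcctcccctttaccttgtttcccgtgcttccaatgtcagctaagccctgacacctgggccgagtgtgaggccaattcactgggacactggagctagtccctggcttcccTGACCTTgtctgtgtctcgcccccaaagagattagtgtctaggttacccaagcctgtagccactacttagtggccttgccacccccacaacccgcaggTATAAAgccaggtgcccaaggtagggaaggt
Fshb: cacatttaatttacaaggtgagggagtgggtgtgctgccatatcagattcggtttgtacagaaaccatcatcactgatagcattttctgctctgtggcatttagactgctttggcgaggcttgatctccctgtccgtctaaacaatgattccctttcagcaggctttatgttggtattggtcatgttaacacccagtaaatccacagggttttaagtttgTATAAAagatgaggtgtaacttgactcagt
Gnrhr: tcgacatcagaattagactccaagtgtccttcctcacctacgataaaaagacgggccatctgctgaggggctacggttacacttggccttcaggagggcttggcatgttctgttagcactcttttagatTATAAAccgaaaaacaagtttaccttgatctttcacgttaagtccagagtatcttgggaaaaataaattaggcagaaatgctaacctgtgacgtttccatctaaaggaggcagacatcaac
Scg2: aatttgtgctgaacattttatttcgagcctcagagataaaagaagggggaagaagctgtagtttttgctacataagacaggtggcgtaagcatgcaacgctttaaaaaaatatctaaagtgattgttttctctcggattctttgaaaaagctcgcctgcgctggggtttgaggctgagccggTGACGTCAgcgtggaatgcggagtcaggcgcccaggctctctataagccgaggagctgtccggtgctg
Amhr2: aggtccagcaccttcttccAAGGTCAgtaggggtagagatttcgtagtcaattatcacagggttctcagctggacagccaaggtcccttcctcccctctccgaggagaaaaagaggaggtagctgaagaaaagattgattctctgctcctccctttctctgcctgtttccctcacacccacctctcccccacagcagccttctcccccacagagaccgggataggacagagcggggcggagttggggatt

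TATAAA stood 30 to 25 bases before the start in Cga and Fshb and 31 to 26 bases before it in Lhb, so the brightest and the dimmest of the gonadotropin genes share this element at the same place. Gnrhr held it farther off, 121 to 116 bases before the start. The Lhb promoter also held AAGGTCA on the minus strand, 129 to 123 bases before the start. Scg2, a granin, held TGACGTCA at 68 to 61, and Amhr2, the receptor of anti-Müllerian hormone, held AAGGTCA at 231 to 225. A match is a run of letters and not a binding site.

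Across 11791 genes on the array with 1 annotated start, the motif content of the 300 bases from 250 before to 50 after the start differed along the ranking. In each quintile by signal the share of promoters with each of 7 motifs was counted on both strands, and matches of different motifs could overlap. TATAAA was in 16.4% of the dimmest quintile and 6.40% of the brightest, beside 10.2% of all 11791 genes. CCGGAAG, a motif of ETS factors, ran the other way, from 4.62% to 23.3%, beside 14.1%. AAGGTCA went from 5.43% to 2.67% (3.86% of all 11791), TGACGTCA from 1.74% to 3.65% (2.70%), GATAA, of GATA factors, from 27.6% to 14.5% (19.1%) and TAATCC, of Pitx factors, from 8.05% to 5.13% (6.20%). CCAAT was nearly level, at 38.4% and 41.8% (38.6%). Among all 22862 RefSeq promoters with 1 start, on the array or not, the shares were 14.8% for TATAAA, 9.12% for CCGGAAG, 4.65% for AAGGTCA, 1.85% for TGACGTCA, 26.3% for GATAA, 7.37% for TAATCC and 38.2% for CCAAT. The number of CpG dinucleotides per promoter rose from 9.71 to 24.7 over the same quintiles, and its part in these shares was not tested.

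**Figure D3:**
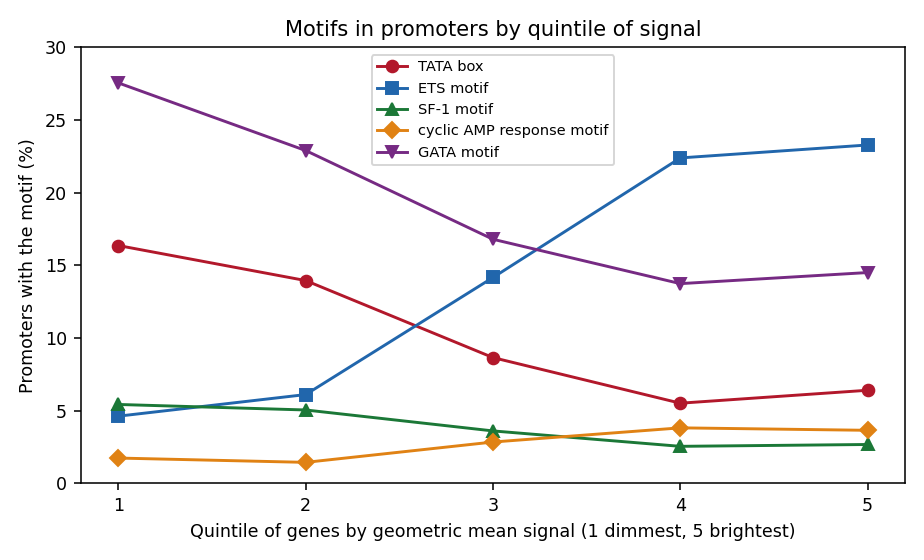
Share of promoters (percent, y axis) that hold each of 5 motifs, for genes in quintiles of geometric mean signal on the vehicle arrays from the dimmest to the brightest (x axis). The ETS motif goes from 4.62% to 23.3%, the GATA motif from 27.6% to 14.5% and the TATA box from 16.4% to 6.40%.

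By class, TATAAA was in 14 of 41 promoters of hormones, a share of 34.1%, and in 11 of 35 promoters of genes of other cells. Over all genes on the array the share was 10.2%, and 3 of 36 promoters of granule proteins and 9 of 110 of channels were near it. TGACGTCA, in 2.70% of promoters on the array, was in 5 of 36 promoters of granule proteins, Scg2 among them, in 3 of 41 of hormones, in 5 of 67 of genes of cell state and in none of the 110 of channels.

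Of 13 receptors of the TGF-beta family 8 were above the limit on every array, and 6 were above it by the median of the probe sets of each gene. The list median, at percentile 86.7, is the value of Acvr1b, which stands at 56.6 by the median of its probe sets. Amhr2, the type II receptor for anti-Müllerian hormone, was the brightest with 7820.2, 8481 and 7970.7, at percentile 99.5. This probe set and a second one at 5846 are of the kind whose probes may read other transcripts, while the third, with gene-specific probes, read 2410.3, 2341.2 and 2566.4. Anti-Müllerian hormone itself (Amh) was at 8.7.

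Receptors for activin and BMP signals were bright at both levels of the complex. Among type II receptors, Bmpr2 was at 2685 (percentile 94.6) and Acvr2a, which binds activin, read 1532.1, 1571.3 and 1531.8. The type I receptors Bmpr1a (2115), Tgfbr1 (1719), Acvr1b (1285), the activin type I receptor, and Acvr1 (1048) were above the limit, as was the co-receptor Tgfbr3 (2165). Acvr2b read 273.4, 208.8 and 254.6 and Acvr1c was at 124.1, both below the limit. Tgfbr2, which TGF-beta itself needs for signalling, read 30.7, 57.9 and 76.3, so the values lay on either side of the median of the families of other organs.

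Few receptors of hypothalamic and local peptides and amines were bright. Of 30 such genes 5 were above the limit, and Gnrhr was the only one of them in the top decile of probe sets. The dopamine receptors Drd2 (889.2, 961 and 796.7) and Drd4 (391.6, 507 and 430.8) and the corticotropin-releasing hormone receptor Crhr1 (508.7, 516.1 and 575.7) were above it on every array. Kiss1r, the kisspeptin receptor, read 334.2, 277.8 and 322.8 and crossed the limit. The count of 5 was 2 without shared probe sets or with the 99th percentile as the limit, and 13 with the median of all probe sets as the limit. Shared probe sets are here all those marked as reading several transcripts, be it of the same gene, as for Gnrhr, or of others. They were left out only where the gene had another probe set. The PACAP receptor Adcyap1r1 was at 207.3, the oxytocin receptor at 79.4 and the neurokinin B receptor Tacr3 at 137.2, with 65.5 as its lowest array.

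Receptors for steroids, thyroid hormone and retinoids were near the background, with 8 of 18 above the limit. The glucocorticoid receptor Nr3c1 read 1434.7, 1319.1 and 1478.5, at percentile 87.9, followed by Rxrb (1086) and the thyroid hormone receptor Thra (1008). The progesterone receptor Pgr was at 437. The estrogen receptors were dim, with Esr1 at 187.4, 133.6 and 202 and Esr2 at 21.5, 32.8 and 22.1. Among 24 receptors of growth factors and cytokines 9 were above the limit, led by Igf1r (1235.7, 1172.3 and 1224.4) and Fgfr2 (737.7, 845.5 and 951.2), whereas Met, Erbb4 and Pdgfrb lay between 15.7 and 27.7. The other Igf1r probe sets, at 128.8 to 248.3, were below the limit, and the count of 9 fell to 5 without shared probe sets and to 2 with the median of probe sets.

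Transcription factors of the gonadotrope and pituitary lineage ranged from among the brightest to among the dimmest probe sets. Of 29 such genes 16 were above the limit, close to the share of all genes, and 10 were in the top decile of probe sets, which holds 16.3% of all genes. The LIM factor Isl1 led with 6510.5, 7697 and 7375.4, followed by Nr0b1, which encodes the SF-1 partner Dax-1, with 6503.1, 6422.7 and 5979.7. Pitx1 (4622), Sox4 (4180.3), Eya1 (4057), Gata2 (3233), Sox11 (3219) and Insm1 were in that decile too, together with Foxl2 and Nr5a1. For Isl1 and Pitx1 a second probe set was also bright, at 4319 and 3754, whereas the other Eya1 probe sets were at 363.8 and 117.7.

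Lhx3, a LIM factor of the anterior pituitary, was at 1119.9 and Msx1 at 1485. Egr1, the immediate early factor that acts on the Lhb promoter, read 555.4, 250.1 and 242.5, and it was above the limit on the 1 h array alone. Otx1 and Otx2 were below the limit, Otx2 with 3.3, 3.4 and 2.5. Sox2, of pituitary stem cells, read 2.5, 6.2 and 5.1, and Gata3 read 10, 10.8 and 16.1.

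Smad proteins that carry activin signals were bright on all arrays. Smad4, the shared partner, was at 4385 (SD 0.03), Smad2 at 3685 and Smad3 at 2829 (SD 0.02), all in the top decile. Of the Smads of the BMP branch, Smad5 was at 650.5, while Smad1 (130.2) and Smad9 (48.4) were below the limit. The inhibitory members Smad7 (471.7) and Smad6 (424.2) were above it. Among AP-1 and CREB factors, Atf4 (4591), Atf2 (2822), Jund (1905) and Creb1 (1205) were bright, Fos (312) and Jun (270.7) lay on either side of the limit, and Junb (74.8) and Fosl1 (50.5) were dim. Orphan nuclear receptors were at the background, with 11 of 22 above the limit, led by Nr1d2 (3876) and Nr2c2 (3815).

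**Figure D4:**
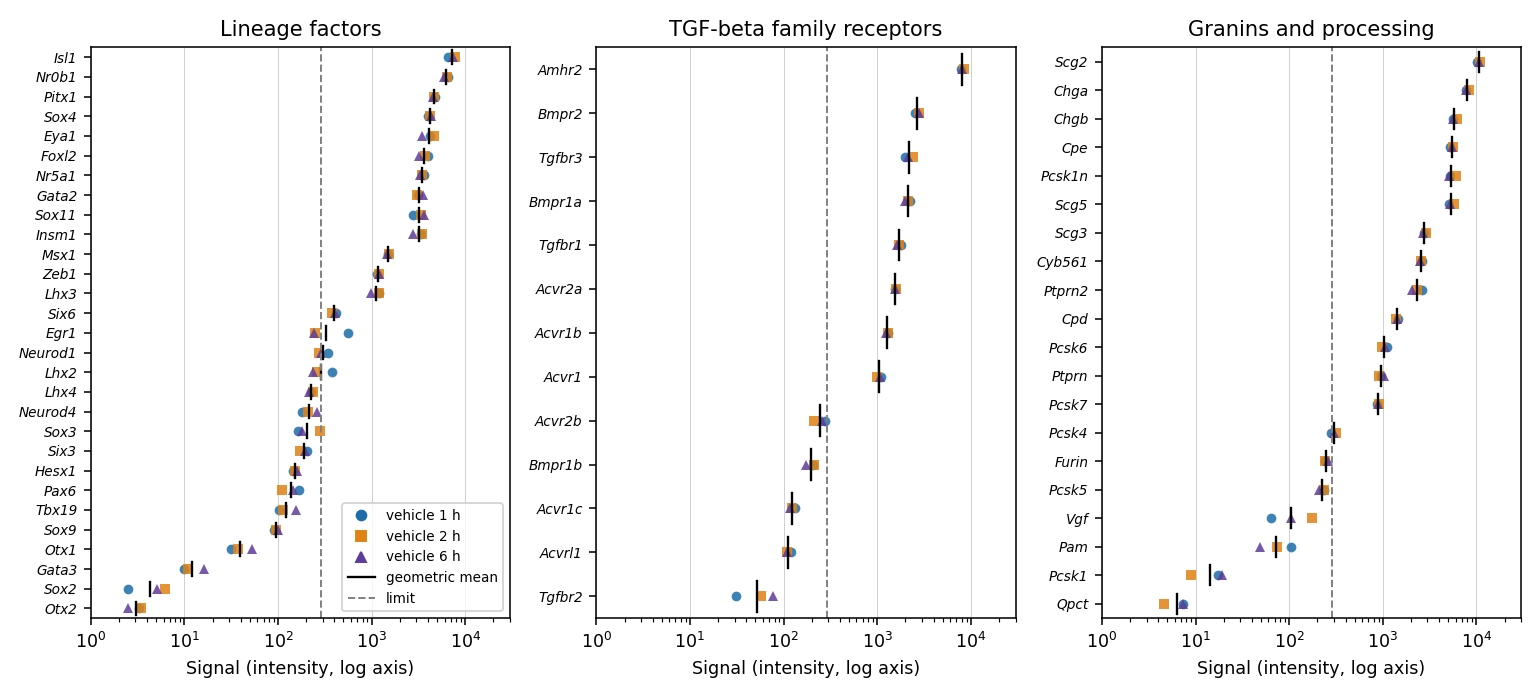
Signals on the vehicle arrays at 1, 2 and 6 h (points, log axis), their geometric mean (bar) and the limit of 287.8 (dashed line) for lineage factors, receptors of the TGF-beta family, and granins with enzymes of prohormone processing. The numbers above the limit are 16 of 29, 8 of 13 and 14 of 20, and the points of bright genes lie closer together than those of dim genes.

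Granule proteins were the brightest of the 5 main classes. Secretogranin II (Scg2) read 10099.6, 10947.9 and 10770.2 and ranked 48 of all probe sets. Chromogranin A (Chga) read 7769.6, 8419.3 and 7820.9, and chromogranin B (Chgb) 5640.1, 6137.3 and 5618.6. Granins are acidic proteins that condense in dense-core granules and are cut into peptides. Carboxypeptidase E (Cpe, 5428), which trims prohormones, Pcsk1n (5414), an inhibitor of the convertase Pcsk1, and Scg5 (5323), a chaperone of the convertase Pcsk2, were all at percentile 98.4.

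The processing enzymes did not all follow. The convertase Pcsk1 read 17.3, 8.9 and 19, at percentile 9.4, although its inhibitor was bright. The convertase Pcsk2 was not matched on the arrays under 1 name, so its level was not read. Pam, which amidates peptides, read 105.5, 74.2 and 48.8, and Qpct, which closes N-terminal glutamine, was at 6.3. Furin, at 247, was just below the limit. Convertases of the general secretory pathway were brighter, with Pcsk6 and Pcsk7 above the limit.

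Proteins of regulated exocytosis were above the limit for 33 of 38 genes, 14 of them in the top decile. The priming factor Cadps2 was at 5182 (SD 0.03), the calcium sensors Syt4 and Syt7 at 4817 and 3806, and the Rab effector Rph3al at 4352 (SD 0.01). Of the core fusion proteins, the syntaxin Stx1a was at 4123, Snap25 at 1942 and the synaptobrevin Vamp2 at 1361. The other Snap25 probe set, at 154.5, was below the limit. The vesicle GTPases Rab3a and Rab3b were at 3201 and 2568. Syt1, the calcium sensor of fast synaptic release, was at 310.5, close to the limit, and the dimmest members were Sytl4, Unc13b and Sytl2, at 101.3 to 107.4.

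Channels held no gene in the top 1% of probe sets and 5 in the top decile. Among 16 voltage-gated calcium channel genes 8 were above the limit, a count that fell to 3 with the median of probe sets and to 2 with the 99th percentile as the limit. The auxiliary subunit Cacnb2 read 1649, 1653.9 and 1648.4, at percentile 89.8. The T-type pore subunits Cacna1g (911, 898.2 and 871.2) and Cacna1h (581.1, 497.9 and 550.4) were the brightest pore subunits. Of the L-type pores, Cacna1c read 306.4, 351.5 and 379.6, Cacna1d was at 193.5 and Cacna1s at 28.3.

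Potassium channels were above the limit for 20 of 80 genes. Both kinds of subunit of the large-conductance calcium-activated channel were among the brightest, the beta subunit Kcnmb2 with 2279.1, 2104.9 and 2021.5 and the pore Kcnma1 with 1626.6, 1304.4 and 1559.1. The other Kcnma1 probe sets were at 885.2 and, below the limit, at 124.4, 102.2 and 24.8. Kcnd2, an A-type channel, was at 1787, the ERG channel Kcnh2 at 1446, the pore of the ATP-sensitive channel Kcnj11 at 1442 and the EAG channel Kcnh1 at 1294. Kcns1, Kcnt2 and Kcnh5 were the dimmest, at 4.2 to 10.6.

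Of 12 sodium channel genes 3 were above the limit, namely the pores Scn3a (1040.1, 979.3 and 1100.7) and Scn8a (635.1, 535.8 and 647.2) and the auxiliary subunit Scn3b (389). Scn2a was at 58.7 and Scn9a at 62.0. Among the HCN, TRP and chloride channels 11 of 28 were above the limit, and the chloride transporters of intracellular membranes Clcn5 (3723) and Clcn3 (2845) and the ubiquitous channel kinase Trpm7 (2684) led. Hcn3 (651) and Hcn2 (390.5), which carry pacemaker current, were above it as well.

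For calcium release, which follows GnRH receptor activation, 6 of 10 genes were above the limit. The inositol trisphosphate receptor Itpr3 read 1085, 1150.8 and 1190, and Itpr2 was at 304.2. The ryanodine receptors were all below the limit, at 74.0 to 86.2. Stim2 (1055), Orai1 (687.9) and Stim1 (473.5), of store-operated entry, were above it. Ligand-gated channels were mostly dim, with 9 of 35 above the limit, among them the nicotinic subunits Chrna4 (1199) and Chrnb2 (728.1), the purinergic P2rx4 (653.4) and the AMPA subunit Gria2 (699.7).

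**Figure D5:**
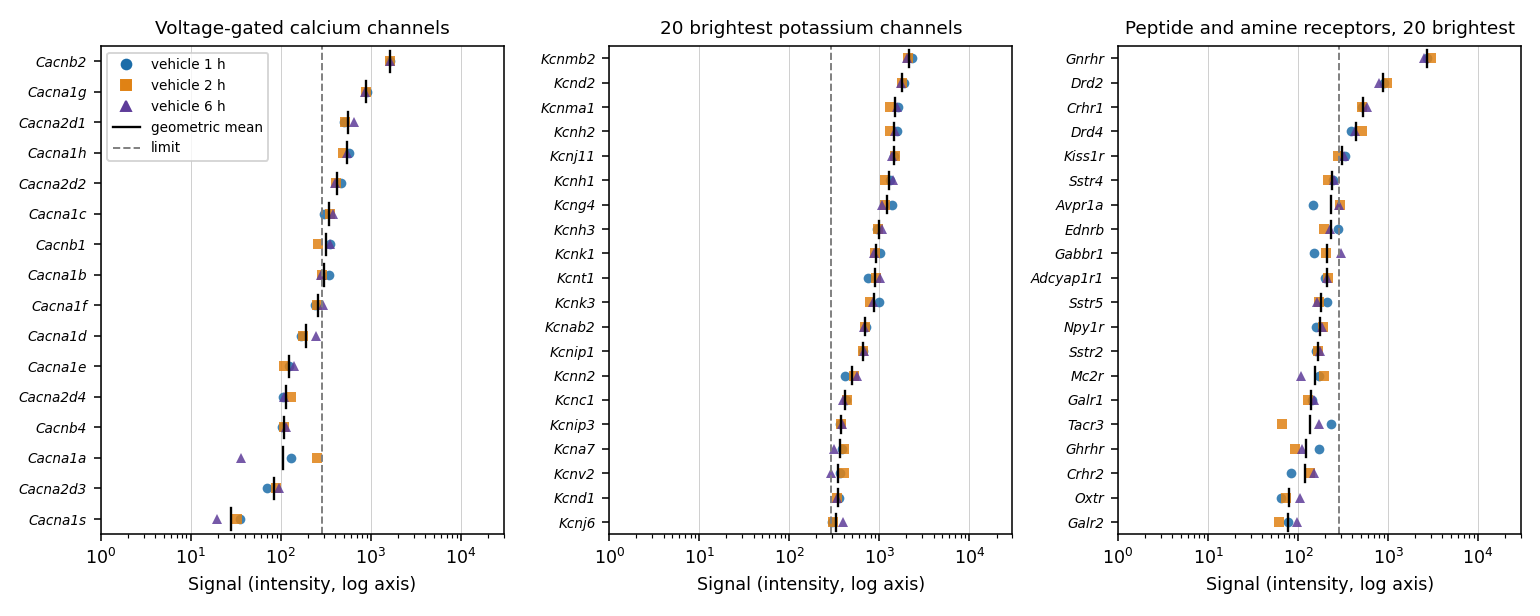
Signals on the vehicle arrays at 1, 2 and 6 h (points, log axis), geometric mean (bar) and the limit of 287.8 (dashed line) for voltage-gated calcium channels, the 20 brightest potassium channels and the 20 brightest receptors of peptides and amines. Of the receptors shown 5 lie above the limit and Gnrhr lies highest, at 2715.

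Proteins that carry the GnRH receptor signal were above the limit for 30 of 38 genes, with a median at percentile 80.0. Of the G protein alpha subunits, Gnas was at 9760.2, Gnai2 at 3357, Gna11 at 2167 and Gnaq at 1389. The last pair couples the GnRH receptor to phospholipase C. Among phospholipases Plcb4 led, with 5778.2, 5408.1 and 5094.5, and among protein kinases C Prkcb led, with 5893.9, 5987.5 and 5837.8. The regulatory subunit of protein kinase A Prkar1a was at 5271 (SD 0.01) and the adenylyl cyclase Adcy5 at 4631, whereas Adcy1, Adcy7 and Adcy8 were at 39.6 to 71.9.

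Outside the ribosome the brightest genes after Cga were Tuba1a (12192), Eef1a1 (11974), Uqcrb (11712) and Tpt1 (11561), and 9 of the 30 brightest encode parts of the respiratory chain or ATP synthase. Ribosomal protein genes were 28 of the 100 brightest. The genes of more restricted use in this set were Nnat (10969), an imprinted membrane protein of neural and endocrine cells, Stmn3 (10759.9), a neuronal stathmin, Scg2, Car2 (10112), a carbonic anhydrase, and Irs4 (9838), an adaptor of insulin-like signalling. On the activin arrays 94 of the same 100 genes were again among the 100 brightest.

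Genes of dividing cells were bright, in cells held without serum. Of 31 genes of the cell cycle and of T antigen partners 28 were above the limit and 18 in the top decile. Pcna was at 10514, Mcm7 at 8380, the proliferation marker Mki67 read 6949.2, 7808 and 7260.8, and Top2a was at 6799.9. Rb1, a target of T antigen, was at 2344, Cdkn1a at 1551 and Cdkn2a at 1091.

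Of 21 neuronal genes 12 were above the limit, close to the share of all genes, and 9 were with the median of probe sets. In the top decile were 8, among them the neurofilaments Nefm (5609) and Nefl (5396), Uchl1 (4178) and Ncam1 (3318). Gap43 (12.2), the glutamate transporter gene Slc17a6 (26.0) and Gad1 (59.4) were dim. Of 9 genes of steroid synthesis, many of them targets of SF-1 in adrenal and gonad, 2 were above the limit, Fdx1 (7490.0) and Scarb1 (2696). Cyp11a1 read 297.9, 271.2 and 200.7, Star 306, 279.6 and 99.9, and Cyp17a1 was at 30.1.

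Markers of other cells were checked beside these levels. Of 11 markers of other pituitary cells 2 were above the limit (Crhr1 and Tshb), and the defining genes of somatotropes, lactotropes and stem cells were dim, as given above. Of 12 markers of fibroblasts, endothelium and blood 3 were above it on every array. These were the endothelial cadherin Cdh5 (989.4, 1111 and 959.1), Pecam1 (527.3, 576 and 530.5) and the macrophage receptor Csf1r (574.5, 689.9 and 908.1). Other genes of the same cells, Tek (43.9), Kdr (208.5), Ptprc (48.3) and Col1a1 (83.3), were below it. In RNA from whole cultures a few cells with much transcript and many cells with little cannot be told apart.

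Of 29 genes of other organs 4 were above the limit. One of them was among the brightest of the array: the elastase gene Cela1, best known from the exocrine pancreas, read 9388.4, 9885.2 and 9527.6 and ranked 108. Thyroglobulin (Tg) was at 784.7, Krt5 at 366.6 and Ckm at 302. Albumin, at 234.5, was not above the limit.

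For genes above the limit the median SD over the 3 arrays was 0.10 (95th percentile 0.28). Of 6160 such genes with several probe sets, 4165 had a probe set that was not above the limit. A low rank does not show that a transcript is absent. Among 42 cytosolic ribosomal protein genes, left after 6 paralogs with symbols ending in l or l1 (3 of them also not above the limit) were set aside from the list of 48, 3 were not above the limit (Rpl14, Rps27 and Rps16), and Rps16 read 2.7, 3.4 and 2.2. Among listed genes the widest gaps between probe sets were in Rps18 (10168 and 9.7), Gnas (9760.2 and 9.4), Cdk2 (1723 and 1.8), Rb1 (2344 and 2.8) and Nsf (3784 and 7.1). Just outside the limit lay Kcnmb4 (286.1), Trpm2 (285.6) and Lhx2 (284.2), and just inside it Pcsk4 (297.5) and Fosl2 (298.5).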

How the data were processed

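Total RNA of LβT2 cells was measured on 6 Affymetrix mouse genome arrays of 45101 probe sets, 1 for each of activin and vehicle at 1, 2 and 6 h. The authors deposited 1 intensity per probe set and array on a linear scale, which GCOS 1.4 produced, per the submitters' processing notes. Values show a scaling of each array to a trimmed mean of 500, with 2% trimmed at either end. The authors' tables of fold changes were not used. Without 64 controls, 34945 probe sets had 1 gene in the platform annotation, 932 had several and 9160 had none. Symbols of 34741 were taken from RefSeq, assembly GRCm38.p6, through Entrez identifiers, whether or not the symbol changed.

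The geometric mean over the 3 vehicle arrays was ranked over 45037 probe sets, and percentiles are of that ranking. The limit is the 95th percentile of 133 genes of families of other organs. No test was run, since all values describe 1 group. The number of arrays limits the precision. Named genes were drawn from the markers, the pituitary hormones, and the 6 brightest and 3 dimmest of each list. They were also drawn from the 30 brightest outside ribosomal proteins and from listed genes whose probe sets differ most. Not all of these are printed, and some lists, such as orphan nuclear receptors, are shown by bright members only. Other listed genes were named for their role after their values were seen. The members and the 27 lists were chosen with earlier results of these data known, and 6 further lists were added after the values were seen. The whole families in the closing section were also chosen after the values were seen. Of 692 distinct listed genes 638 were matched. Promoters were read from RefSeq tables, for genes with 1 start. The ranking step was run on simulated data in which some probe sets were set above the brightest signal. That run checks the code only, and the limit was not part of it. The 11 alternatives tried are given in the closing section. Python 3.11.15 with pandas 2.3.3, numpy 2.4.6 and matplotlib 3.10.9 was used.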

Additional observations from a re-analysis of the deposited data

Results flagged for a closer look

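A control probe set outside the vehicle arrays was far brighter than on them. For the 5′ end of 18S rRNA the activin array at 1 h gave 12201.8, while the 3 vehicle arrays lay between 190.3 and 642.8. That array entered only the check of the 100 brightest genes and the alternative that uses the 3 activin arrays. With 3 arrays in the group, single arrays were not examined for outlying values.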

How the results depend on the processing

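The counts above the limit depended most on the limit itself. With the 99th percentile of the families of other organs (a signal of 707.3), 6306 of all 18193 genes were above it. Among them were 24 of 181 channels, 15 of 85 receptors and 24 of 71 transcription factors. With the median of all probe sets (156.2) the number was 11405 genes, with 88 channels, 19 of 58 hormones and 46 receptors. With the middle value over its probe sets for each gene in place of the brightest, the limit was 263.3. Above it were 17 receptors and 8231 of all genes. With the 90th percentile (212.4), 10393 genes were above it, 72 of them channels and 12 hormones. All other counts by class, and the number of genes above the limit (6306 to 11405), stayed within 1.5 times their value, as they did when each vehicle array was left out, with quantile normalization, with the arithmetic mean and on the activin arrays. Counts by list were smaller and moved more: with the 99th percentile, 11 potassium channels, 7 factors of AP-1, CREB and Smads, 4 orphan nuclear receptors, 3 steroid and related receptors, 3 ligand-gated channels and 1 sodium channel were above it, and with the median of probe sets 5 steroid and related receptors and 1 sodium channel. Percentiles of single genes depended on the probe set: Gnrhr fell to 50.9 with the median of probe sets and also without shared probe sets, Nr5a1 to 58.3, Acvr1b to 56.6 and Foxl2 to 82.7 with the median, and Amhr2 to 93.8 without shared probe sets. Cga kept rank 1 in each setting that was run. Class medians fell with the median of probe sets, for granule proteins from 85.9 to 71.6 and for receptors from 53.0 to 38.5. Channels went from 48.9 to 37.7 and hormones from 38.1 to 34.1. The median of 64.6 over all genes is for brightest probe sets and is no background for these lower values. No paired analysis was possible because the levels of 1 group come from no test. The background correction was the authors' own and was not varied here, and a dim signal does not show that a transcript is absent.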

Other observations

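Lists added after the values were seen numbered 6, among them enzymes that act on the sugar chains of gonadotropins. Of these enzymes 8 of 11 were above the limit, beside 51.7% of all genes. The sialyltransferase St6gal1 read 4055.9, 3452.8 and 3572.7, and B4galt1 was at 1968. Chst8, the sulfotransferase that gives luteinizing hormone its sulfated sugars, read 355.3, 329.1 and 377.5, and B4galnt4, of the same route, was at 219.4, below the limit. Of 14 other genes reported from gonadotropes 2 were above it, the cadherin Cdh2 (4582) and Foxp2 (2113), while Dmp1 (15.5), Nhlh2 (62.3) and Rasd1 (144.7) were not. Adhesion genes showed a mixed set: Epcam (5271), Cdh2, Cldn3 (2625) and Esrp1 (1705) were bright, and Cdh1 (46.7) and Vim (82.7) were dim on every probe set.

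Antigen presentation and interferon genes were above the limit for 15 of 17, beside 51.7% of all genes. Among them were Psmb9 (4573), Tapbp (3742), H2-D1 (3541) and B2m (1115), whereas Ifit1 was at 59.5. The H2-D1 probe set is of the kind whose probes may read other transcripts, and the dimmest of the 9 for this gene was at 47.6. Of 23 imprinted genes 11 were above the limit, among them Nnat, Gnas, Peg3 (4603) and Meg3 (342.8 on its brightest probe set), while Cdkn1c was at 4.1. The Y-linked genes Kdm5d (100.5), Uty (55.5) and Eif2s3y (45.3) were below the limit. Xist read 256.3, 281.3 and 390.3 on a probe set shared between transcripts and was at 25.9 and 17.7 on the other probe sets. Whole families were also chosen after the values were seen. Among them, 43 of 44 genes of mitochondrial complex I and 76 of 76 mitochondrial ribosomal proteins were above the limit. The counts were 44 of 59 for Rab genes, 206 of 339 for Zfp genes and 161 of 347 for solute carriers. They were 2 of 36 for Hox genes and 6 of 48 for keratins, and the share of all genes was 51.7%. Igfbp2 (8774) and Igfbp5 (4701) were the brightest of 7 binding proteins of insulin-like growth factors. Serpina3a, a serine protease inhibitor, ranked 184 with 8847.6, 9065.5 and 8174.8; it was singled out after its values were seen.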
